A study of Mus musculus with 8 samples.

Results

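The T cell receptor (TCR) complex, the CD8 coreceptor and the first kinases below them were described in P14 CD8+ T cells through 10 genes chosen by name: *Cd3e*, *Cd3d*, *Cd3g*, *Cd247*, *Cd8a*, *Cd8b1*, *Lck*, *Zap70*, *Lat* and *Cd5*. All 10 were among the 24303 genes in the table. P14 mice are C57BL/6 mice with a transgenic TCR that recognizes the GP33 peptide of LCMV on MHC class I, so every condition carried the same receptor transgene. Splenic CD8 T cells from male or female mice were put on plates with anti-CD3 and anti-CD28 (days 0 to 2) in medium with IL-2, after which the medium held both IL-2 and IL-15. Acute-2d cells received no peptide after that phase, and Acute-7d cells received GP33 until day 7. T_Dysf cells, labelled Dysfunctional, received GP33 repeatedly up to day 19 and TGF-β1 from day 7, without anti-CD28 in the chronic phase. These 3 conditions were collected on day 19. Effector cells were antigen-experienced cells collected on day 7. They are taken here as stimulated until then from a figure label of the paper (7d-stim), since its methods do not describe them separately. Each condition had 2 libraries of polyadenylated RNA from sorted viable cells. T_Dysf cells were therefore still under peptide and TGF-β1 when collected, whereas the Acute cells had rested, and the parts played by peptide, TGF-β1 and time since stimulation cannot be told apart. The 2 replicates of a condition are described as biological, but whether they came from separate mice is not given in the sources used here, so p-values measure the spread between these libraries.

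The TCR α and β chains bind peptide and MHC but have almost no cytoplasmic tail. They are assembled with CD3ε-CD3δ and CD3ε-CD3γ pairs and with a CD247 (ζ) dimer, whose tyrosine motifs carry the signal. CD8αβ binds MHC class I and brings LCK, the Src-family kinase that phosphorylates those motifs. ZAP-70 then docks on them and phosphorylates LAT, the membrane scaffold of the downstream signalosome, while CD5 is a surface receptor known to damp TCR signalling and to follow its strength.

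The members lie on chromosomes 1 (*Cd247*, *Zap70*), 4 (*Lck*), 6 (*Cd8a*, *Cd8b1*), 7 (*Lat*), 9 (the CD3 genes) and 19 (*Cd5*). On the GENCODE vM21 annotation of GRCm38, which is the mm10 build of the files, *Cd3g* spans chr9:44969572-44980431 on the minus strand, *Cd3d* chr9:44981786-44987339 on the plus strand, and *Cd3e* chr9:44998740-45009627 on the minus strand. *Cd3g* and *Cd3d* are thus divergent neighbours, 1354 bases apart, and *Cd3e* lies 11400 bases beyond *Cd3d*. *Cd8b1* (chr6:71322788-71337494) and *Cd8a* (chr6:71373427-71379173) are 35932 bases apart on the plus strand. *Cd5* spans chr19:10717116-10739002 on the minus strand.

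Promoter windows of 4 genes are printed because 2 of the 3 neighbouring CD3 genes were called higher in T_Dysf and the third was not, and because *Cd5* was the member called lower. Each window runs from 250 bases before to 50 bases after the RefSeq start on GRCm38.p6, read 5′ to 3′ on the strand of the gene. The windows are chr9:44980382-44980681 for *Cd3g* (minus), chr9:44981536-44981835 for *Cd3d* (plus), chr9:45009562-45009861 for *Cd3e* (minus) and chr19:10738925-10739224 for *Cd5* (minus). Capitals mark matches on either strand to the letters AGGAAG, used here as the ETS core. Other forms of the ETS site, such as GGAA alone, were not searched.
Cd3g: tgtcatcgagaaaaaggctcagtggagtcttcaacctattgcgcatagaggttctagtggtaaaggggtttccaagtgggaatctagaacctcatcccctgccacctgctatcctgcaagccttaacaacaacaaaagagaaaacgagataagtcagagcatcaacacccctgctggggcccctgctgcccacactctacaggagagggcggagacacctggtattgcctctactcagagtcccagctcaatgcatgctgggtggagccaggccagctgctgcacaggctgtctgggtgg
Cd3d: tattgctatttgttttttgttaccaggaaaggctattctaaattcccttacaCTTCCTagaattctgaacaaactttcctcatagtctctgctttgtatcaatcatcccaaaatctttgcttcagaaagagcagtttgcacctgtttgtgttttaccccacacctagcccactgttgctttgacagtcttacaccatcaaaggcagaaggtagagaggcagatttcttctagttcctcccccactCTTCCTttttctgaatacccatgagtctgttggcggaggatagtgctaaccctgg
Cd3e: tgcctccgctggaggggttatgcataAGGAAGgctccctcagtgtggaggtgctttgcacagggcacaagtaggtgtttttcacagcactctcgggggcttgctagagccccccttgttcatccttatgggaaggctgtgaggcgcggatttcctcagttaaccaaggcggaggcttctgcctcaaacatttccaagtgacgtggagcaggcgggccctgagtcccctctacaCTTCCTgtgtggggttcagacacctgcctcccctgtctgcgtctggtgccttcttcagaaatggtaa
Cd5: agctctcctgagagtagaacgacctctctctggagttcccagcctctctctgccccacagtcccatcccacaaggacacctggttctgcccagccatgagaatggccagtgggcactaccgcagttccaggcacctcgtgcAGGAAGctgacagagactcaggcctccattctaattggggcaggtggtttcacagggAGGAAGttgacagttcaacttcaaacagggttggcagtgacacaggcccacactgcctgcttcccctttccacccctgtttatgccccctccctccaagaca

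The windows were searched on both strands for AGGAAG and for the RUNX core TGTGGT. *Cd3d*, *Cd3e* and *Cd5* held 2 ETS matches each and no RUNX match, and *Cd3g* held neither string, though its window holds the shorter GGAA. RefSeq gave 12 windows for 9 of the 10 members. In those windows 7 of the 9 members had an ETS match and 3 (*Zap70*, *Lck* and *Lat*) had a RUNX match, with 0 overlaps between the motifs. By window, 9 of the 12 held the ETS core and 3 the RUNX core. Of all 32851 windows of this length, 35.4% held the ETS core and 16.8% the RUNX core. A match describes the letters of the window and does not show binding.

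The deposited values are normalized counts, that is, estimated reads per gene that the authors divided by a size factor for each library. Depth was close across libraries, at 19381799 to 24856512 reads on genes as estimated from the worth of 1 read. All 10 members were far above the floor of 3 reads (2.59 to 3.35 normalized counts), with 690.6 as the lowest value of any member in any library. A group of 3 libraries, both Effector libraries and Acute-7d replicate 1, carries the prefix RESUB in its name, whose meaning is not given in the sources used here. Over the 8 libraries, *Cd8a* ranged from 11170 to 36163 normalized counts and *Cd4* from 1.01 to 13.04. Not every lineage marker went with this pair. *Zbtb7b*, listed as a CD4 T cell marker, had 1041 to 1625 normalized counts. *Trdc*, the δ constant region of the TCR, was above *Trac*, the α constant region, in every library. Trav14-1 was the most abundant Trav segment (44.4% to 74.1% of the Trav sum) and Trbv13-3 the most abundant Trbv segment (15.1% to 47.3%) in all 8 libraries.

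**Figure D1:**
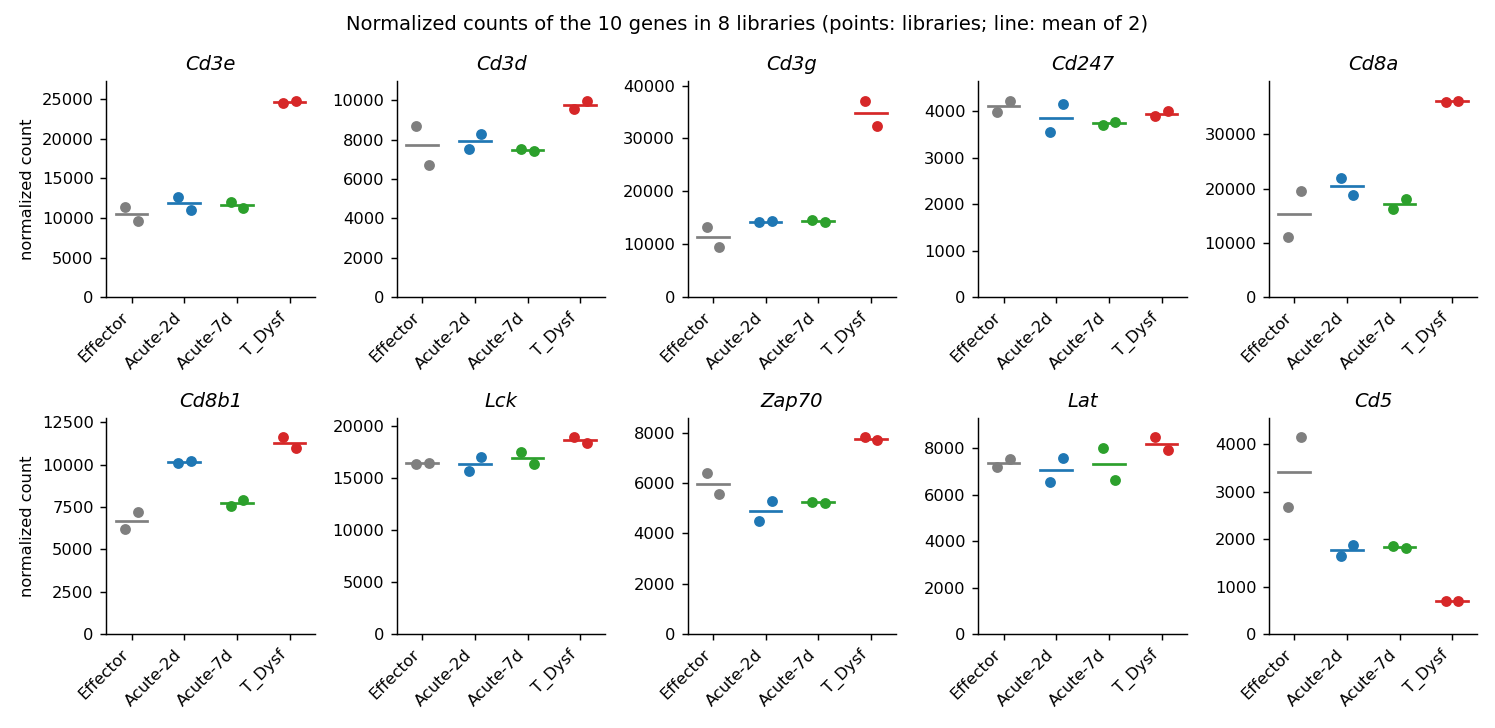
Normalized counts (y axis, from 0) of the 10 genes in Effector, Acute-2d, Acute-7d and T_Dysf cells; each point is a library and each line the mean of 2. The T_Dysf libraries lie above the other 6 for 7 genes and below them for *Cd5*.

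Of the signalling chains of the receptor, *Cd3e* and *Cd3g* were more than 2-fold higher in T_Dysf cells than in any other condition, while the differences of *Cd3d* and *Cd247* did not pass the test. Ratios of these genes within a library did not pass a test of their own, which a difference of T_Dysf alone need not pass. The test was limma's moderated test on log2(normalized count + 1) with Benjamini-Hochberg adjustment over all genes. A gene is called at an adjusted p under 0.05, and is a differentially expressed gene (DEG) when its fold change is also at least 2. In bulk RNA, fewer cells that express a gene and less RNA per cell cannot be told apart.

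*Cd3e* encodes CD3ε, the chain shared by both CD3 pairs. Its normalized counts were 11448 and 9573 in Effector, 12665 and 11069 in Acute-2d, 12056 and 11277 in Acute-7d, and 24506 and 24788 in T_Dysf. Both T_Dysf libraries lay well above the other 6, which overlapped between conditions. The log2 fold change of T_Dysf was 1.08 over Acute-7d (SE 0.12, 95% interval 0.76 to 1.4, adjusted p = 0.0134), 1.06 over Acute-2d (adjusted p = 0.0113) and 1.24 over Effector (adjusted p = 0.00811). *Gm48719*, an annotated gene on the opposite strand whose exons overlap those of *Cd3e*, had 5.06 to 69.2 normalized counts.

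*Cd3g* encodes CD3γ and showed the largest rise in T_Dysf among the members. The libraries held 13353 and 9549 normalized counts in Effector, 14258 and 14386 in Acute-2d, 14602 and 14161 in Acute-7d, and 37130 and 32348 in T_Dysf. The T_Dysf libraries were apart from all others, and Effector replicate 2 was the lowest. The log2 fold change of T_Dysf was 1.27 over Acute-7d (SE 0.18, 95% interval 0.80 to 1.74, adjusted p = 0.0223), 1.27 over Acute-2d (adjusted p = 0.0175) and 1.62 over Effector (adjusted p = 0.01), which is 3.07-fold.

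*Cd3d*, which encodes CD3δ and starts next to *Cd3g*, ranged from 6700 to 8697 normalized counts in the 6 libraries outside T_Dysf and reached 9563 and 9966 in T_Dysf. The T_Dysf libraries were the highest here too, but by a smaller step. Over Acute-7d its log2 fold change was 0.38 (SE 0.14, 95% interval 0.03 to 0.74, adjusted p = 0.165). Over Acute-2d it was 0.31 (adjusted p = 0.237) and over Effector 0.35 (adjusted p = 0.158), so *Cd3d* was called in none of these comparisons. It was called over Acute-7d without Effector replicate 1 or replicate 2 (log2 fold change 0.38 in each) and over Effector without Effector replicate 1 (0.54).

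*Cd247*, the gene of the ζ chain, varied least of the members, with 1.19 times between its lowest and highest library. Its normalized counts were 3990 and 4225 in Effector, 3556 and 4160 in Acute-2d, 3714 and 3773 in Acute-7d, and 3888 and 4003 in T_Dysf. The T_Dysf values fell inside the range of the others. T_Dysf differed by a log2 fold change of 0.08 from Acute-7d, with a 95% interval of -0.15 to 0.30 (adjusted p = 0.654), and its size was at most 0.06 against the other conditions. *Pou2f1* on the opposite strand and *Gm16565* on the same strand have exons that overlap those of *Cd247*, and the counting of strand is not given in the sources used here.

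Ratios within a library, which do not depend on scaling between libraries, followed the same order. The *Cd3d*/*Cd3e* ratio of normalized counts was 0.390 and 0.402 in T_Dysf and 0.595 to 0.760 in the other 6 libraries. *Cd247*/*Cd3e* was 0.159 and 0.161 in T_Dysf and 0.281 to 0.441 elsewhere. *Cd3g*/*Cd3e* was 1.52 and 1.30 in T_Dysf and 0.998 to 1.30 elsewhere, so that the lower T_Dysf library was level with Acute-2d replicate 2. *Cd8b1*/*Cd8a* was 0.323 and 0.304 in T_Dysf and 0.367 to 0.552 elsewhere.

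**Figure D2:**
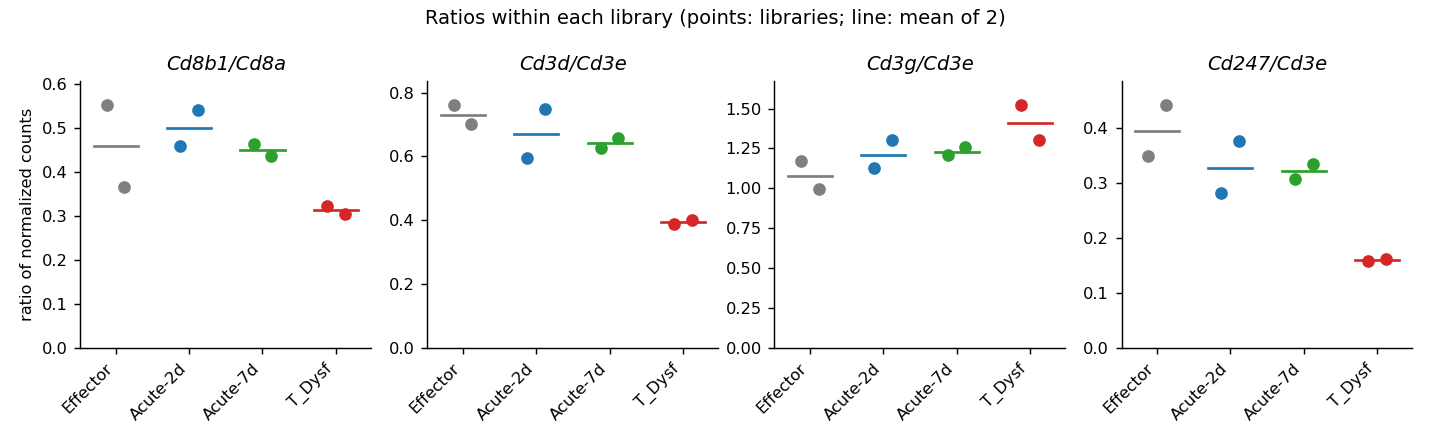
Ratios of normalized counts within each library (y axis, from 0) by condition; each point is a library and each line the mean of 2. T_Dysf has the lowest *Cd8b1*/*Cd8a*, *Cd3d*/*Cd3e* and *Cd247*/*Cd3e* ratios, with means of 0.313, 0.396 and 0.160.

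None of the 4 ratios passed the exact permutation test of the between-condition F, which is one-sided and runs over the 105 ways to divide 8 libraries into 4 groups of 2, with 0.00952 as its smallest possible p. The exact permutation p was 0.0667 for *Cd247*/*Cd3e*, 0.0762 for *Cd3d*/*Cd3e*, 0.162 for *Cd3g*/*Cd3e* and 0.200 for *Cd8b1*/*Cd8a*. Adjusted over the 4 ratios, these permutation values ran from 0.152 to 0.200. The test asks for differences among all 4 conditions, and Acute-7d lay inside the range of Acute-2d for the CD3 and ζ ratios. Where the other conditions overlap, any division that keeps the T_Dysf libraries together gives a similar F. A difference of T_Dysf alone need therefore not pass, and the test does not decide whether T_Dysf differed.

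The coreceptor genes were both highest in T_Dysf cells, *Cd8a* with a wider spread between replicates than *Cd8b1*. *Cd8a*, which encodes the α chain that binds LCK, had 11170 and 19543 normalized counts in Effector, 22007 and 18853 in Acute-2d, 16334 and 18039 in Acute-7d, and 35908 and 36163 in T_Dysf. The 2 Effector libraries differed from each other more than any other pair, and both T_Dysf libraries stood above all 6 others. Over Effector the log2 fold change was 1.29 (SE 0.28, 95% interval 0.56 to 2.02, adjusted p = 0.0443). That call was made under 10 of 13 alternatives and lost with only T_Dysf and Effector fitted, the replicate block and the RESUB term. With each library left out in turn, the log2 fold change over Effector ran from 0.88 to 1.69. Over Acute-7d it was 1.07 (95% interval 0.34 to 1.80, adjusted p = 0.0908) and over Acute-2d 0.82 (adjusted p = 0.142), so a difference near 2-fold over Acute-7d was not called. *Cd8a* over Acute-7d was called, at an adjusted p down to 0.0203, when either Effector library was left out, when genes under 50 normalized counts were removed, or when only T_Dysf and Acute-7d were fitted.

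*Cd8b1*, the gene of the CD8 β chain, had 6169 and 7181 normalized counts in Effector, 10110 and 10219 in Acute-2d, 7555 and 7879 in Acute-7d, and 11597 and 10990 in T_Dysf. The 4 conditions did not overlap for this gene, with Acute-2d close under T_Dysf. The log2 fold change of T_Dysf was 0.55 over Acute-7d (SE 0.09, adjusted p = 0.0310) and 0.76 over Effector (adjusted p = 0.0112). Over Acute-2d it was 0.15, with a 95% interval of -0.08 to 0.38 (adjusted p = 0.363). The call over Acute-7d was made under 10 of 13 alternatives. It was lost with only T_Dysf and Acute-7d fitted, the replicate block and the RESUB term. With each library left out in turn, the log2 fold change over Acute-7d ran from 0.51 to 0.59. Over Effector the call was made under 11 of 13. *Cd8b1* was also the 1 member called outside T_Dysf: Effector was below Acute-2d by a log2 fold change of -0.61 (SE 0.09, adjusted p = 0.0201). That call was made under 11 of 13 alternatives. It was lost with only Effector and Acute-2d fitted and with the RESUB term. Acute-7d was below Acute-2d at -0.40 (95% interval -0.63 to -0.16), with an unadjusted p of 0.00734 from limma and an adjusted p of 0.417.

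**Figure D3:**
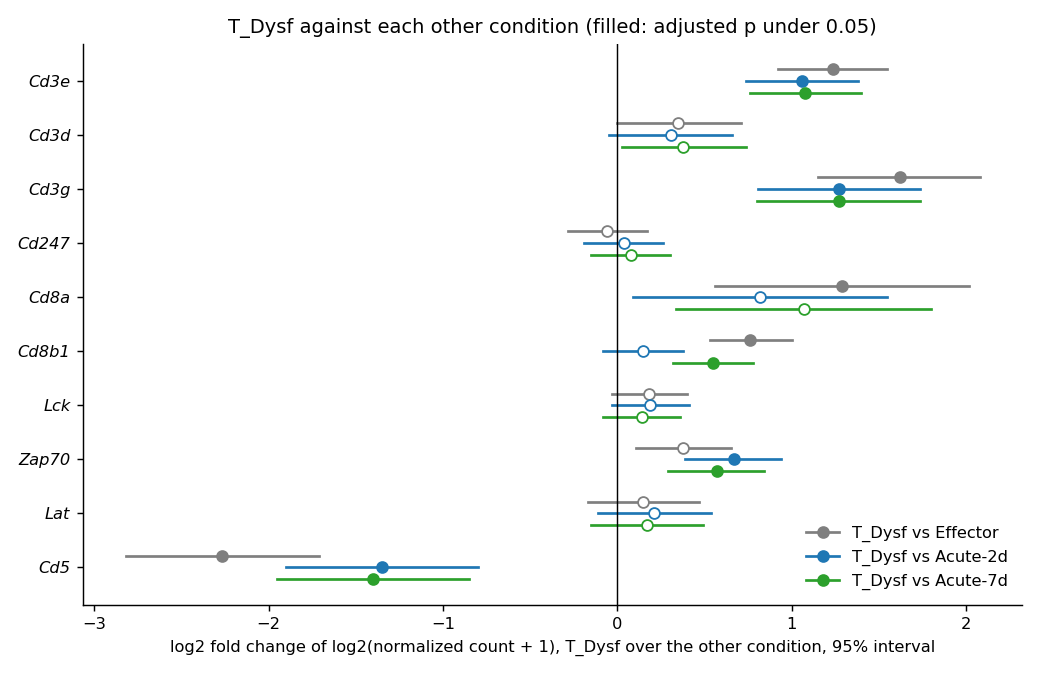
Log2 fold change of log2(normalized count + 1) of T_Dysf over Effector, Acute-2d and Acute-7d (x axis, with 95% intervals) for the 10 genes; filled points have an adjusted p under 0.05. *Cd3e* and *Cd3g* are called above 1 in all 3 comparisons, *Cd5* below -1, and *Cd247*, *Lck*, *Lat* and *Cd3d* in none.

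Among the kinases and the scaffold, *Zap70* alone was called, in T_Dysf against both Acute conditions, while *Lck* and *Lat* were called in none of the 6 comparisons. *Zap70* had 6381 and 5558 normalized counts in Effector, 4499 and 5287 in Acute-2d, 5256 and 5221 in Acute-7d, and 7806 and 7697 in T_Dysf. Both T_Dysf libraries were above the other 6, and Effector lay between T_Dysf and the Acute cells. Its log2 fold change in T_Dysf was 0.57 over Acute-7d (SE 0.11, adjusted p = 0.0422), 0.67 over Acute-2d (adjusted p = 0.0234) and 0.38 over Effector (95% interval 0.11 to 0.65, adjusted p = 0.0790). The *Zap70* call over Acute-7d was made under 7 of 13 alternatives, at log2 fold changes of 0.49 to 0.57. It was lost with each of 3 scalings, the replicate block, the RESUB term and eBayes without trend. The scalings were equal 75th percentiles, equal totals and quantile normalization. Over Acute-2d the call was made under 10 of 13.

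*Lck* ranged from 15742 to 17559 normalized counts outside T_Dysf and was 18942 and 18449 in T_Dysf. The T_Dysf libraries were the highest, by a narrow margin. The log2 fold changes over Acute-7d, Acute-2d and Effector were 0.14, 0.19 and 0.18 (adjusted p 0.365, 0.233 and 0.214), and over Acute-7d the 95% interval ran from -0.08 to 0.36. *Lat* had 6557 to 7993 normalized counts outside T_Dysf and 8457 and 7902 within, so that Acute-7d replicate 1 lay between the T_Dysf libraries. Its log2 fold change over Acute-7d was 0.17 (95% interval -0.15 to 0.49, adjusted p = 0.457).

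*Cd5* was the only member below the other conditions in T_Dysf. It had 2678 and 4144 normalized counts in Effector, 1650 and 1886 in Acute-2d, 1849 and 1809 in Acute-7d, and 690.6 and 693.9 in T_Dysf. The Effector libraries were the highest and differed from each other most, the Acute conditions overlapped, and T_Dysf was apart and lowest. The log2 fold change of T_Dysf was -1.40 against Acute-7d (SE 0.21, 95% interval -1.95 to -0.85, adjusted p = 0.0260), -1.35 against Acute-2d (adjusted p = 0.0231) and -2.27 against Effector (adjusted p = 0.00724). The Effector level was thus 4.81-fold that of T_Dysf. *Cd5* was higher in Effector than in Acute-2d by 0.92 (95% interval 0.37 to 1.47, adjusted p = 0.0509) and than in Acute-7d by 0.86 (adjusted p = 0.0596), neither of which was called. Both lay close to the threshold: *Cd5* was called under 6 of 13 alternatives against Acute-2d and under 5 of 13 against Acute-7d.

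Against the background of all genes, 5 of 10 members were called between T_Dysf and Acute-7d, where 9.21% of the 24303 genes were, and 3 were DEGs, where 5.57% were. Between T_Dysf and Acute-2d 4 members were called (11.9% of all genes) and 3 were DEGs (7.35%). Between T_Dysf and Effector 5 were called (15.6%) and 4 were DEGs (9.22%). The 3 comparisons share the T_Dysf libraries and are not independent. The shares and medians over all genes include many genes with low values, whereas no member was low. Among the 12028 genes with a mean of at least 50, 3003 were called against Acute-7d, with 6 members. The counts were 3405 with 5 members against Acute-2d, and 4598 with 6 members against Effector. The median log2 fold change of the members was 0.47, 0.26 and 0.37 in these comparisons, and 0 over all genes in each.

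Outside T_Dysf, 1 member was called in 1 comparison. Between Acute-7d and Acute-2d, 0 of 10 members were called or were DEGs by limma (0.169% of all genes by either rule), and *Cd8b1* was the 1 member at an unadjusted p under 0.05. Between Effector and Acute-2d, *Cd8b1* was the 1 member called (15.7% of all genes) and 0 were DEGs (8.78%). Between Effector and Acute-7d, 0 were called (14.9%) and 0 were DEGs (8.06%), with *Cd5* as the 1 member at an unadjusted p under 0.05 (0.0102, limma). With limma-voom weights, 0 members were called between Acute-7d and Acute-2d and between Effector and Acute-7d as well. In Effector against Acute-2d, *Cd5*, *Cd8b1* and *Zap70* were under that unadjusted level.

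By limma's moderated F over the 4 conditions, 5 members were called (*Cd3e*, *Cd3g*, *Cd8b1*, *Zap70* and *Cd5*), where 20.2% of all genes were. Among the 12028 genes with a mean of at least 50, 6289 genes and 6 members were called by this F. *Cd3e* had the largest F of the members (42.7, rank 1136 of 24303) and *Cd247* the smallest (0.865, rank 19432). Both T_Dysf libraries were above the other 6 for 7 members (11.6% of all genes) and below them for 1 member, *Cd5* (12.0%). The 2 members that were neither were *Cd247* and *Lat*.

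Leaving out a library or adding a term changed the count of called members, as given here. With a term for the RESUB prefix, which leaves Acute-7d replicate 2 as the 1 Acute-7d library without the prefix and no Effector library, 0 members were called in T_Dysf against Acute-7d or Effector and 2 (*Cd3e* and *Cd3g*) against Acute-2d. That term left 677 and 444 of all genes called against Acute-7d and Effector, from 2238 and 3787. The log2 fold changes over Acute-7d under all settings stayed within 1.0 to 1.20 for *Cd3e*, 1.17 to 1.37 for *Cd3g* and -1.48 to -1.38 for *Cd5*. With T_Dysf and Effector fitted alone, 0 members were called between them. Without T_Dysf replicate 1, 0 members were called in any of the 3 T_Dysf comparisons, and without T_Dysf replicate 2 there were 1, 1 and 4 against Acute-7d, Acute-2d and Effector. Over all genes, leaving out T_Dysf replicate 1 took the calls from 2238 to 583 against Acute-7d, from 2882 to 859 against Acute-2d and from 3787 to 824 against Effector. Without Acute-7d replicate 1 or replicate 2, 0 were called against Acute-7d, without Acute-2d replicate 1 or replicate 2 there were 2, and without Effector replicate 1 or replicate 2 there were 7. Against Acute-2d, 1 member was called without either Acute-2d library and 2 without either Acute-7d library. The part of the RESUB prefix in these results was not tested.

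Levels per kilobase of transcript allow a rough comparison between genes. The length was that of a principal GENCODE vM21 transcript chosen for each gene, whereas reads were quantified to RefSeq transcripts. The order between genes can therefore depend on that choice. By this measure *Cd3g* was the highest member in all 8 libraries and *Cd5* the lowest. In T_Dysf the level per kilobase was 33958 ± 3305 for *Cd3g* (SD, n = 2), 16858 ± 137 for *Cd3e* and 11520 ± 57.8 for *Cd8a*. *Cd3d* had 6039 ± 176 and *Cd247* 2418 ± 50 per kilobase in T_Dysf. In Acute-7d the levels per kilobase were 14058 ± 305 for *Cd3g*, 7980 ± 377 for *Cd3e*, 5494 ± 385 for *Cd8a*, 4627 ± 49.4 for *Cd3d* and 2294 ± 25.7 for *Cd247*. *Cd8a* stood above *Lck* per kilobase in both T_Dysf libraries and below it in the other 6. *Zap70* and *Cd247* were neighbours in this order in every library, and their order changed between libraries.

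**Figure D4:**
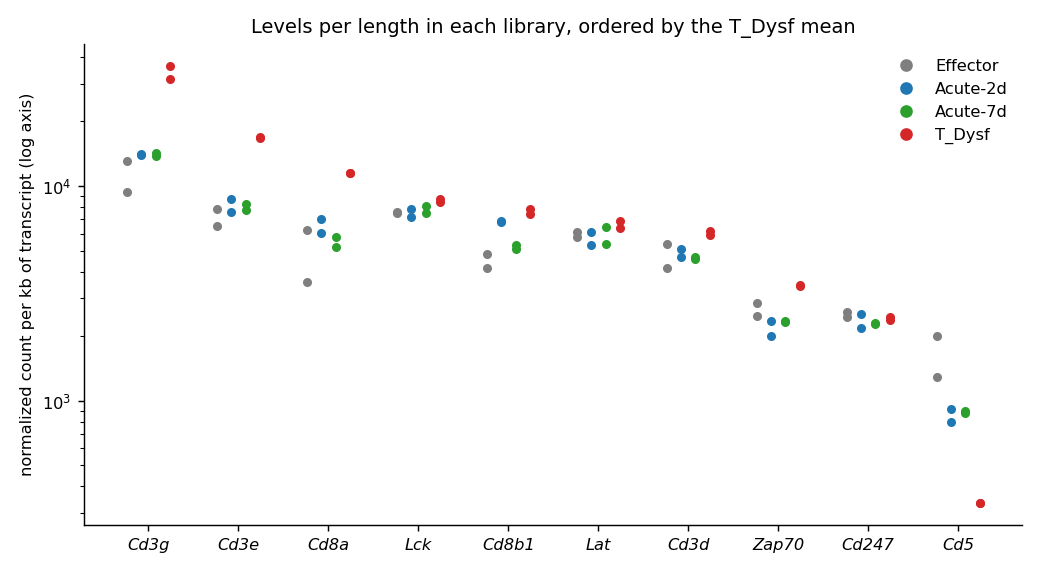
Normalized count per kilobase of transcript (y axis, log scale) for the 10 genes in each library, ordered by the T_Dysf mean; each point is a library, coloured by condition. *Cd3g* is highest and *Cd5* lowest in every condition.

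By Pearson correlation of log2(normalized count + 1) over the 8 libraries, the genes most like *Cd3e* among 12018 genes with a mean of at least 50 were *D430042O09Rik*, *Glp1r* and *Mospd1* (r = 0.992 each). Those most like *Cd247* were *Pygb* (r = 0.978), *Thap7* (0.959) and *Adipor2* (0.954). The 8 points come from 4 conditions, so these values describe shared order of the libraries.

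The receptor chains that the CD3 subunits hold were measured by their constant regions, and none of those was called between T_Dysf and Acute-7d. *Trac*, the α constant region, had 7107 and 3953 normalized counts in Effector, 4732 and 5471 in Acute-2d, 3669 and 5059 in Acute-7d, and 9564 and 6338 in T_Dysf. The replicates of a condition were far apart here, and the log2 fold change over Acute-7d was 0.85 (SE 0.37, 95% interval -0.11 to 1.81, adjusted p = 0.234). *Trbc1* and *Trbc2*, the β constant regions, had log2 fold changes of -0.14 (SE 0.26) and 0.37 (SE 0.32), and being near-identical copies they may share reads. *Trdc*, the δ constant region, had 5302 to 11389 normalized counts in all 8 libraries, with a log2 fold change of 0.19 (SE 0.29). *Trgv2*, named after its values were seen, had 290.4 to 465 normalized counts outside T_Dysf and 2358 and 1358 in T_Dysf.

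*Fcer1g*, which encodes the Fc receptor γ chain, a relative of ζ with the same kind of signalling motif, was the 1 called gene of the 6 tested in the list of TCR and ζ-family chains. It had 156 and 122 normalized counts in Effector, 55.8 and 57.2 in Acute-2d, 53.6 and 181.8 in Acute-7d, and 923.6 and 1111 in T_Dysf. T_Dysf was apart from all other libraries, and the Acute-7d replicates differed widely. Over Acute-7d it rose by a log2 fold change of 3.34 (SE 0.58, adjusted p = 0.0352). The log2 fold change was 2.47 without Acute-7d replicate 1 and 4.22 without Acute-7d replicate 2. The call was lost without either T_Dysf, Acute-2d or Effector library, with the replicate block and with only the 2 conditions in the fit. The median of the list was 0.61, beside 0 for all genes.

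**Figure D5:**
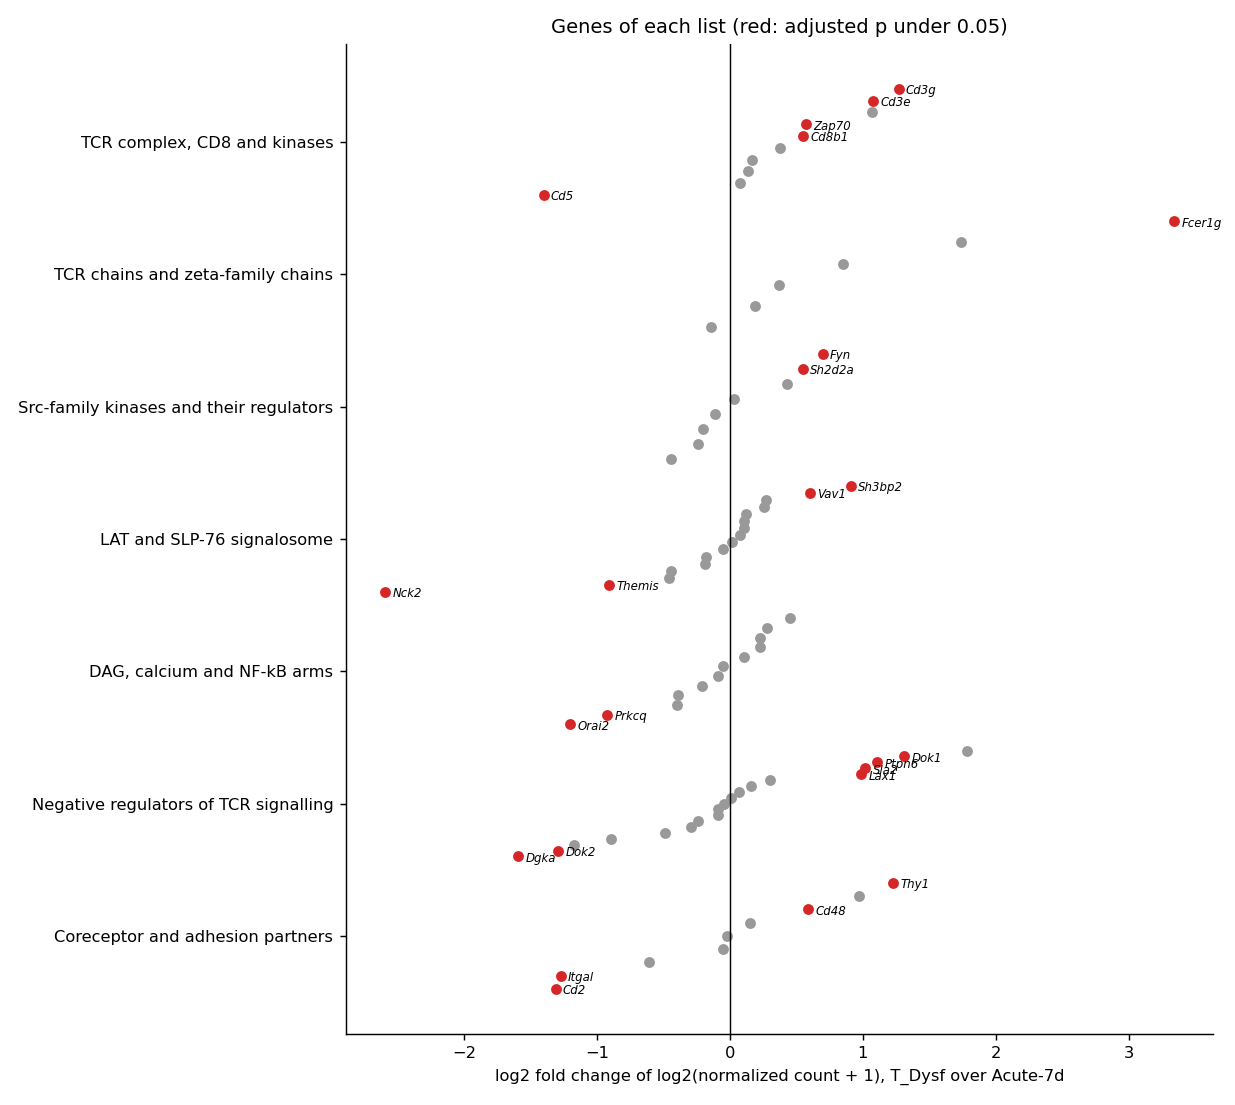
Log2 fold change of log2(normalized count + 1) of T_Dysf over Acute-7d (x axis) for each gene of 7 lists; red points have an adjusted p under 0.05 and carry names. *Nck2* is the lowest point and *Fcer1g* the highest.

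Around the members, the lists of TCR signalling genes held changes in both directions between T_Dysf and Acute-7d, with medians near 0. Of all genes, 4.79% were called higher and 4.42% lower in that comparison. That share includes many genes with low values, whereas nearly all genes of these lists had a mean of at least 50. With only the 12028 genes above that filter fitted, 3003 were called in either direction. The list counts here come from the fit of all genes, so they do not show an excess over genes of like level. Of 8 Src-family kinases and regulators, 2 were called higher and 0 lower (median -0.04): *Fyn*, the other Src-family kinase of T cells, at 0.70 (SE 0.08, adjusted p = 0.0141), and the adaptor gene *Sh2d2a* at 0.55 (adjusted p = 0.0496). Of 16 genes of the LAT and SLP-76 signalosome, 2 were higher (*Vav1* at 0.60 and *Sh3bp2* at 0.91) and 2 lower (*Nck2* and *Themis*, the latter at -0.91), with a median of 0.05. *Nck2*, which encodes an SH2-SH3 adaptor, was the DEG among them, with 95.2 and 78.3 normalized counts in T_Dysf and 444 to 618 in the other 6 libraries (log2 fold change -2.59, SE 0.20, adjusted p = 0.00548). Of 12 genes of the diacylglycerol, calcium and NF-κB arms, 0 were higher and 2 lower (median -0.07): *Prkcq*, the gene of PKCθ, at -0.92, and *Orai2*, a store-operated calcium channel gene, at -1.20 (SE 0.09, adjusted p = 0.00511).

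Of 19 negative regulators of TCR signalling, 4 were called higher (*Ptpn6*, *Dok1*, *Sla2* at a log2 fold change of 1.02 and *Lax1* at 0.99) and 2 lower (*Dgka* and *Dok2*), with a median of -0.04. *Dgka*, whose product removes diacylglycerol, fell from 11639 and 11246 normalized counts in Acute-7d to 4116 and 3523 in T_Dysf, by log2 fold change -1.59 (SE 0.11, adjusted p = 0.00485). *Ptpn6*, the gene of the phosphatase SHP-1, rose from 2824 and 3545 in Acute-7d to 6659 and 6961 in T_Dysf, at log2 fold change 1.11 (SE 0.13, adjusted p = 0.0139), while Effector held 8381 and 8011. The adaptor genes *Dok1* and *Dok2* moved oppositely, at 1.31 (adjusted p = 0.0372) and -1.29 (adjusted p = 0.0241). T_Dysf was apart from Acute-7d for each of these 4 genes.

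Of 9 coreceptor and adhesion partners, 2 were called higher (*Thy1* and, at a log2 fold change of 0.59, *Cd48*) and 2 lower (*Cd2* and *Itgal*), with a median of -0.02. *Thy1*, a GPI-anchored surface protein of T cells, had 66131 and 71780 normalized counts in T_Dysf and 21361 to 30304 in the other 6 libraries, with a log2 fold change over Acute-7d of 1.23 (SE 0.15, adjusted p = 0.0162). *Cd2*, an adhesion receptor that binds CD48 in mice, fell to 3439 and 3478 from 8378 and 8820, a log2 fold change of -1.31 (SE 0.05, adjusted p = 0.00124). *Itgal*, the α chain of LFA-1, had a log2 fold change of -1.27 (SE 0.14, adjusted p = 0.0127). Among the called genes of these lists, the calls of *Nck2*, *Orai2*, *Dgka* and *Cd2* over Acute-7d were made under every alternative and without any 1 library. *Prkcq* lost its call only without T_Dysf replicate 1, and each other called gene lost it under at least 1 alternative or library.

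Markers of other cell types were measured beside these results. In T_Dysf against Acute-7d, 0 of 4 CD4 T cell, 0 of 3 tested γδ T cell, 0 of 7 myeloid, 0 of 5 tested dendritic and 0 of 5 tested erythroid markers were called by limma. *Ncr1* of 5 NK cell markers was lower, at 2.59 and 1.78 normalized counts against 30.1 and 105 in Acute-7d. Both T_Dysf values were at or under the floor of 3 reads, and the call was made under 8 of 12 alternatives. *Cd79b* of 6 B cell markers was higher, at 135.5 and 114.8 against 30.1 and 38.4. Summed over the list, NK cell markers came to 1077 to 1753 (T_Dysf) and 3569 to 4547 (Acute-7d) normalized counts, and B cell markers 157 to 168 and 56.9 to 68.7. Most of the NK sum was *Eomes*, which CD8 T cells also express (828 and 1202 in T_Dysf, 3510 and 2071 in Acute-7d), and *Klrb1c*, and most of the B cell sum in T_Dysf was *Cd79b*. The sums for T_Dysf and Acute-7d were 1083 to 1409 and 1103 to 1282 for CD4 T cell markers, 436 to 494 and 426 to 621 for myeloid markers, 322 to 424 and 360 to 389 for dendritic cell markers, and 48.2 to 68.6 and 50.5 to 73.8 for erythroid markers. Nearly all of the CD4 T cell sum was *Zbtb7b* (1061 and 1385 in T_Dysf, 1050 and 1232 in Acute-7d), with *Cd4* at most 3.45 in these libraries. *Xcr1* made up nearly all of the dendritic cell sum, and *Lyz2* was the largest part of the myeloid sum. The γδ list, nearly all of it *Trdc*, had 8667 to 11406 in T_Dysf and 7968 to 9626 in Acute-7d. In T_Dysf *Cd40lg*, *Klra4* and *Cd209a* were at 0 in both libraries. The part of the NK and B cell markers in the results for the members was not tested.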

How the data were processed

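RNA-Seq libraries of P14 CD8 T cells were made from 4 conditions with 2 replicates each. The authors aligned reads to mm10 with STAR and quantified them to RefSeq transcripts in Partek Flow. The unit of the deposited values is a signal, an estimate of reads per gene scaled by the authors with the median-ratio method of DESeq2. Since 53.0% to 73.7% of low values were whole multiples of the worth of 1 read (within 0.02), they were not taken as counts, and no count model was fitted. All 24303 genes and all 8 libraries entered 1 fit of log2(normalized count + 1) in limma (version 3.58.1, R 4.3.3, eBayes with trend), with 4 group means, 6 two-sided comparisons, a moderated F and Benjamini-Hochberg adjustment. The procedure and the exact permutation test of ratios were tried on simulated data. The simulated ratios either did not differ or differed among all 4 conditions, and T_Dysf alone apart was not simulated. Replicates of a condition differed by 26.7 to 63.5 times the sampling variance on average, with medians over genes of 3.3 to 10.6. They were thus not 1 library counted again, but separate libraries from the same cells are not excluded.

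The members and gene lists were chosen with earlier results of these data known. Of each list, DEGs between T_Dysf and Acute-7d with a mean of at least 50 were named, at most 4 a list, with the constant regions. Other called genes of the lists were named after their values were seen. Replicate numbers were not taken as pairs: over 6 pairs of conditions, the correlations of replicate differences ran from -0.199 to 0.197, and 2 were over 0.1. The alternatives were other pseudocounts, filters, scalings, fits, fold thresholds and variance models, a replicate block, a RESUB term and leaving out each library, and protein-coding genes only was added after the data were seen. Positions and lengths came from GENCODE vM21, and promoter windows from RefSeq on GRCm38.p6. Figures were made with Python 3.11.15 and matplotlib 3.10.9.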

Additional observations from a re-analysis of the deposited data

How the results depend on the processing

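The RESUB term gave 0 called members and 0 DEGs between T_Dysf and Acute-7d (541 DEGs and 677 called genes over all), 2 called members between T_Dysf and Acute-2d, and 0 and 0 between T_Dysf and Effector (386 and 444 over all). As reported, these comparisons had 1353 and 2238, 1787 and 2882, and 2241 and 3787 genes. The RESUB term also gave 0 members by the moderated F (1696 genes in place of 4904), 0 members between Effector and Acute-2d (350 DEGs and 397 called genes, in place of 2135 and 3821), 808 and 1097 genes between Effector and Acute-7d (in place of 1958 and 3613), and 168 and 177 between Acute-7d and Acute-2d (in place of 41 and 41). With only the 2 groups compared in the fit, T_Dysf against Effector had 0 members, 465 DEGs and 696 called genes, Effector against Acute-2d 0 members, 235 and 269 genes, Effector against Acute-7d 155 and 195 genes, and Acute-7d against Acute-2d 147 and 148.

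No paired design was found, and the replicate block gave 3 called members (*Cd3e*, *Cd3g* and *Cd5*) between T_Dysf and Acute-7d, with 891 DEGs and 1358 called genes, and 3088 genes by the moderated F. In the paired form of the ratio test the exact permutation p with the replicate block was 0.333 for *Cd8b1*/*Cd8a*, 0.167 for *Cd3d*/*Cd3e*, 0.375 for *Cd3g*/*Cd3e* and 0.0833 for *Cd247*/*Cd3e*.

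Between Effector and Acute-2d, 2 members were called in place of 1 with pseudocount 10, either filter at 50, equal totals, quantile normalization or protein-coding genes only, and at a fold of 1.5 there was 1 DEG and 3281 over all genes. Between Effector and Acute-7d, 1 member was called with either filter, equal totals, quantile normalization or protein-coding genes only, and at a fold of 1.5 there were 3089 DEGs. For Acute-7d against Acute-2d the DEGs and called genes were 81 and 83 with pseudocount 0.1, 1 and 1 with either filter, 9 and 16 with quantile normalization, 0 and 0 with limma-voom weights and 27 and 27 with protein-coding genes only, and 4 DEGs with pseudocount 10.

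Values that changed sign were near 0 and uncalled. With equal 75th percentiles, which moved the median of all genes in Effector against Acute-7d by -0.108, they were *Cd247* at 0, -0.03 and 0 (T_Dysf against Acute-7d, T_Dysf and Effector against Acute-2d), *Lck* at -0.09 and *Lat* at -0.03 (Effector against Acute-2d), and *Cd3d* at -0.08 and *Lat* at -0.09 (Effector against Acute-7d). With quantile normalization they were *Cd3e* at 0.01 (Acute-7d against Acute-2d) and *Lck* at 0.09 (Effector against Acute-7d). With the RESUB term they were *Cd3g* at -0.02, *Lck* at 0 and *Lat* at -0.09 (Acute-7d against Acute-2d), *Lck* at -0.10 and *Lat* at -0.21 (Effector against Acute-2d), and *Lat* at -0.12 (Effector against Acute-7d).

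With each library left out in turn, the lowest and highest counts were as follows. T_Dysf against Acute-7d had 0 to 7 called members, 0 to 4 members as DEGs, 422 to 1534 DEGs of all genes and 583 to 2485 called genes. T_Dysf against Acute-2d had 0 to 5 called members, 0 to 3 members as DEGs, 656 to 1867 DEGs of all genes and 859 to 3253 called genes. T_Dysf against Effector had 0 to 6 called members, 0 to 4 members as DEGs, 585 to 2484 DEGs of all genes and 824 to 3882 called genes. Effector against Acute-2d had 0 to 3 called members, 0 to 1 members as DEGs, 553 to 2363 DEGs of all genes and 804 to 3735 called genes. Effector against Acute-7d had 0 to 1 called members, 0 to 1 members as DEGs, 378 to 2156 DEGs of all genes and 483 to 3466 called genes. Acute-7d against Acute-2d had 61 to 376 DEGs of all genes and 63 to 385 called genes. The moderated F called 0 to 7 members and 1119 to 4663 genes. The *Cd8b1*/*Cd8a* ratio passed 0.05 without Effector replicate 1 (0.0286) or replicate 2 (0.0476), *Cd3d*/*Cd3e* without Acute-2d replicate 1 (0.0381) or replicate 2 (0.0286), and *Cd247*/*Cd3e* without Acute-2d replicate 2 (0.0381), all unadjusted exact permutation values. The exact permutation p of the ratios was 0.0286 to 0.448 for *Cd8b1*/*Cd8a*, 0.0286 to 0.114 for *Cd3d*/*Cd3e* and 0.0381 to 0.133 for *Cd247*/*Cd3e*. Log2 fold changes that changed sign ranged as follows. In T_Dysf against Acute-7d they were *Trbc1* -0.53 to 0.25, *Trbc2* -0.08 to 0.82, *Trdc* -0.01 to 0.39. In T_Dysf against Acute-2d they were *Cd247* -0.08 to 0.15. In Acute-7d against Acute-2d they were *Cd3e* -0.12 to 0.08, *Cd3g* -0.02 to 0.03, *Cd247* -0.15 to 0.07, *Lck* -0.01 to 0.11, *Zap70* -0.01 to 0.22, *Lat* -0.09 to 0.18, *Cd5* -0.04 to 0.15. In Effector against Acute-2d they were *Cd3d* -0.24 to 0.14, *Cd247* -0.02 to 0.21, *Lck* -0.05 to 0.06, *Lat* -0.04 to 0.17. In Effector against Acute-7d they were *Cd3d* -0.16 to 0.22, *Cd8a* -0.62 to 0.19, *Lck* -0.09 to 0.01, *Lat* -0.12 to 0.15.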
